A study of Homo sapiens with 6 samples.

Results

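The genes described here are 9 members of the MHC class I antigen presentation pathway in A549 cells, a human lung adenocarcinoma cell line, with and without overexpression of IL17D, a cytokine of the IL-17 family. They are HLA-B, HLA-C, HLA-E, HLA-F, B2M, TAP1, TAP2, TAPBP and NLRC5, and they were taken by gene name from the deposited count table, which holds 58735 genes. All 9 members were detected and all 9 were among the 15754 genes that passed the filter on low counts. Both groups were A549 cells grown in RPMI medium with fetal bovine serum. The control group carried the empty vector and the IL17D group carried the vector with IL17D, with 3 libraries of total RNA in each. Per the study's methods, the lentiviral vector drives its insert from the human PGK promoter and carries GFP behind an internal ribosome entry site. The sources used here do not say whether the lines were clones or pools, or whether the 3 libraries of a group came from separate cultures. The p-values then measure only the spread between these libraries, which may be technical.

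MHC class I molecules show peptides from inside the cell to CD8+ T cells. A heavy chain, encoded by the classical genes HLA-B and HLA-C or by the non-classical genes HLA-E and HLA-F, pairs with the light chain beta-2-microglobulin, encoded by B2M. Peptides are cut by the proteasome, pumped into the endoplasmic reticulum by the TAP1 and TAP2 transporter, and loaded onto the heavy chain with the help of tapasin, encoded by TAPBP. NLRC5 is a transactivator of class I genes that acts through a conserved promoter module. Interferon gamma raises the expression of most of these genes in epithelial cells, and loss of class I is a known route by which tumor cells escape T cells.

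The targeted gene separated the groups in every library. IL17D (chromosome 13, 20702127 to 20723098, hg38) had 24, 18 and 34 counts in the control libraries and 31274, 32155 and 26772 counts in the IL17D libraries. In CPM (counts-per-million, the standard depth-scaled unit, after TMM normalization) it went from 1.61 ± 0.450 to 1911 ± 40.6 (SD, n = 3 each), a log2 fold change of 10.19 (adjusted p = 2.466e-47, edgeR quasi-likelihood test). Library totals were 14319398 to 16521021 counts, so that 3 counts, taken as the limit of detection, corresponded to 0.182 to 0.21 CPM. The limit covers counting error only. Over all 15754 tested genes 106 rose and 143 fell at an adjusted p under 0.05. The labelled cell type was checked with 6 epithelial carcinoma genes. KRT8, an intermediate filament protein of simple epithelia, stood at 7648 ± 130 CPM in controls and 7357 ± 135.1 CPM in IL17D cells. EPCAM was low but above the limit of detection, at 1.053 ± 0.3749 and 0.9756 ± 0.1219 CPM. KRT19 was closer to the limit, at 0.3702 ± 0.1842 and 0.4146 ± 0.2332 CPM. CDH1, the epithelial cadherin, was chosen for mention after its values were seen and fell from 43.40 ± 2.653 to 35.69 ± 3.317 CPM (adjusted p = 0.03055, edgeR). That call was lost in 5 of 14 alternatives (DESeq2, and without control replicate 2 or 3 or IL17D replicate 1 or 2), with an adjusted p up to 0.269, and its part in the values of the class I genes was not tested. Of the 5 epithelial genes tested, all had a negative log2 fold change, as had 7896 of all 15754 tested genes. Of these 5, 3 were lower at an unadjusted p under 0.05 (edgeR), beside 5.99% of all tested genes. The groups did not overlap in 3, all lower, beside 8.31% of all tested genes. CLDN4, a tight junction claudin also chosen after its values were seen, stood at 5.005 ± 0.4653 CPM in controls and 3.172 ± 0.7232 CPM in IL17D cells (log2 fold change -0.65 ± 0.20 SE, adjusted p = 0.1134, edgeR). Of 10 leukocyte marker genes, 5 had no count in any library (PTPRC, CD2, CD3E, MS4A1 and AIF1), CD14 was the highest, and their summed level was 1.175 to 1.908 CPM in controls and 0.9811 to 1.824 CPM in IL17D cells. Of 6 stroma and endothelium markers, COL1A1 was the highest, and their summed level was 22.76 to 24.8 CPM in controls and 19.34 to 23.89 CPM in IL17D cells.

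The promoters of HLA-B, HLA-C and B2M are shown because HLA-C and B2M were the heavy chain and light chain genes with the smallest p, and HLA-B is the nearest relative of HLA-C. They come from RefSeq (GRCh38.p14), which had an entry for 7 of the 9 members and none for HLA-E and NLRC5. Each stretch is written 5′ to 3′ on the gene's strand, and capitals mark matches on either strand to 5 motifs: the interferon element of class I genes GAANNGAAA, the core of the interferon-stimulated response element GAAANNGAA, the NF-kappaB-like GGGNNTTNC, the CCAAT box CCAAT and the cyclic AMP element core TGACG. The first 2 motifs can overlap each other.
HLA-B: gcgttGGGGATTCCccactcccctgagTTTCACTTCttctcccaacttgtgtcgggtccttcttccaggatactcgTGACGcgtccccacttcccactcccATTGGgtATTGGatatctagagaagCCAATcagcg
HLA-C: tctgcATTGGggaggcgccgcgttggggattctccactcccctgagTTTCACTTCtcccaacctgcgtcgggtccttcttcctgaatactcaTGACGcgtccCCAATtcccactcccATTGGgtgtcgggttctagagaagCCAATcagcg
B2M: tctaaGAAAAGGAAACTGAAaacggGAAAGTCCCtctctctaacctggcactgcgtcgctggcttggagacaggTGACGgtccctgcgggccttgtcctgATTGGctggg
The HLA-B stretch is chr6:31357226-31357361 on the minus strand and runs from position -182 to -47 relative to the start of the gene. The HLA-C stretch is chr6:31272139-31272289 on the minus strand, from -197 to -47, and the B2M stretch is chr15:44711368-44711477 on the plus strand, from -149 to -40. HLA-B and HLA-C each hold the element TTTCACTTC on the other strand, TGACG and several CCAAT boxes. HLA-B also holds GGGGATTCC, and the corresponding letters of HLA-C do not match the motif. B2M holds GAAAAGGAA and GAAACTGAA, which overlap, with GAAAGTCCC on the other strand.

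The same motifs were counted in the 250 bases before the start of the 7 members with an entry. GAANNGAAA was present in HLA-B, HLA-C and TAP2, and in 6.56% of all 35116 promoters of the same length. GAAANNGAA was present in B2M, HLA-F, TAP1, TAP2 and TAPBP, and in 6.88% of all promoters. GGGNNTTNC was present in B2M, HLA-B, TAP1 and TAPBP, and in 14.18% of all promoters. CCAAT was present in B2M, HLA-B, HLA-C, HLA-F and TAP1, against 32.01% of all promoters, and TGACG in B2M, HLA-B, HLA-C and TAP2, against 21.22%. TAP1 had a second entry, which held no match. Annotated exons of any gene covered the whole matched stretch of HLA-B, HLA-F, TAP1, TAP2 and TAPBP, and no base of that of HLA-C and B2M. The stretches of HLA-F, TAP1 and TAPBP lay inside the annotated gene. A match describes letters and not a bound site.

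The comparison between the groups asks whether the class I genes of A549 cells differ in RNA level when IL17D is overexpressed. None of the 9 members passed the test at an adjusted p under 0.05, and the smallest adjusted p was 0.1477, for B2M (edgeR quasi-likelihood test, Benjamini-Hochberg over all tested genes). DESeq2 gave an adjusted p for 7 members, none of them under 0.05, and none for HLA-F and NLRC5, and limma-voom called 0 of the 9. Among all tested genes 0.673% were called higher and 0.908% lower. At an unadjusted p under 0.05, 2 members were higher in IL17D cells (HLA-C and TAP2) and 2 were lower (B2M and TAPBP), where 5.59% of all tested genes were higher and 5.99% lower. The groups did not overlap in 2 members that were higher (HLA-C and TAP2) and in 1 that was lower (B2M), where 7.48% of all tested genes were higher without overlap and 8.31% lower. The log2 fold change was positive for 4 members and negative for 5, and its median was -0.00036 beside -0.00044 over all tested genes. The 9 members together summed to 514.5 to 527.9 CPM in controls and to 495.7 to 518 CPM in IL17D cells. In bulk RNA, fewer cells of a type and less RNA per cell cannot be told apart.

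**Figure D1:**
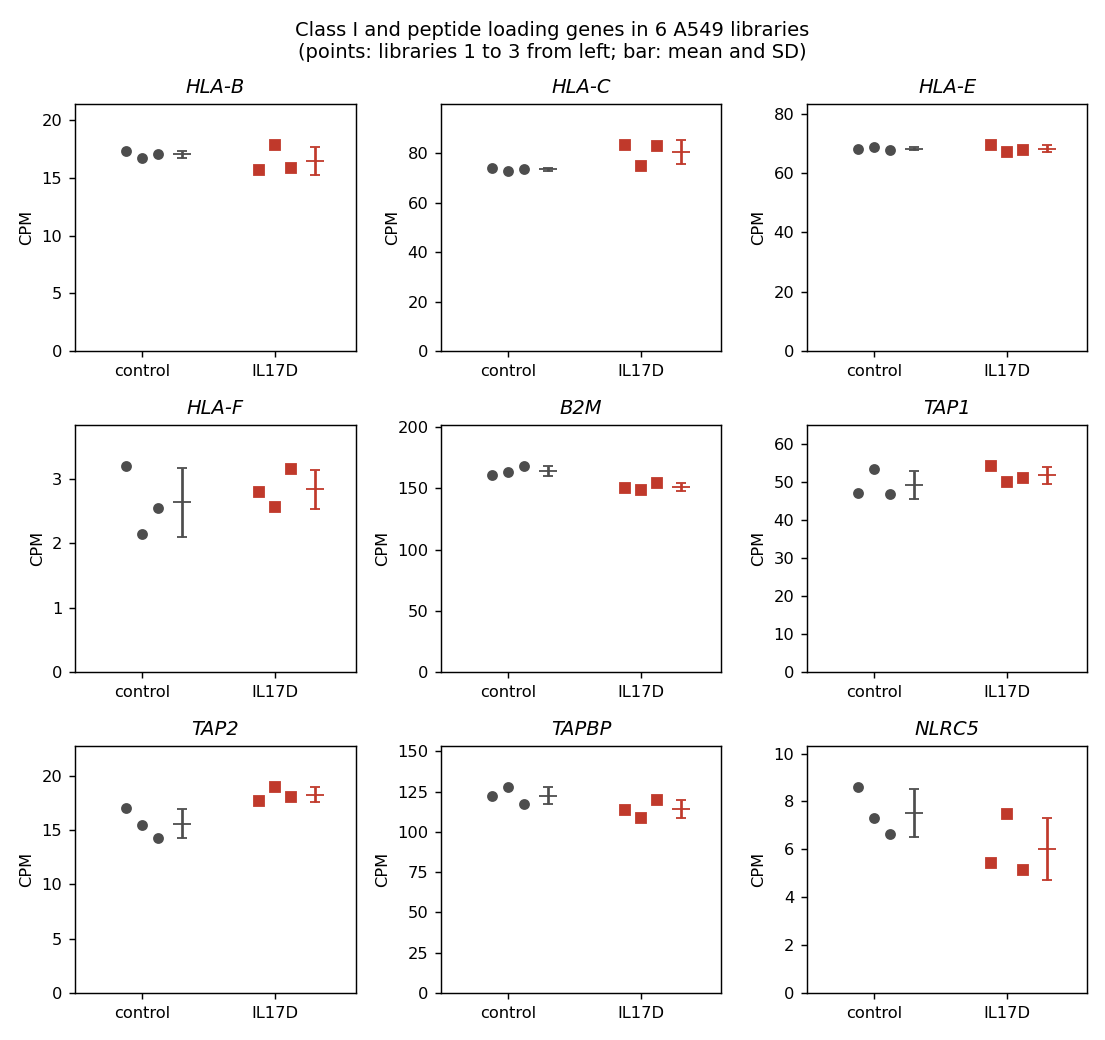
Level of each of the 9 members in CPM (linear axis from 0) in the 3 control and 3 IL17D libraries, with the mean and SD beside the points. HLA-C and TAP2 sit higher and B2M lower in all IL17D libraries, and the other 6 members overlap between the groups.

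Among the heavy chains, HLA-C (ENSG00000204525, chromosome 6, 31268749 to 31272130, minus strand), a classical class I gene whose product is also read by receptors of natural killer cells, stood at 74.03, 72.59 and 73.43 CPM in the control libraries. In the IL17D libraries it stood at 83.28, 74.74 and 82.90 CPM. All IL17D libraries were above all controls, the second of them by little. This gave a log2 fold change of 0.13 ± 0.05 (SE, 95% interval 0.02 to 0.24) and an adjusted p of 0.2953 (edgeR). HLA-B (ENSG00000234745, chromosome 6, 31269491 to 31357188, minus strand), the other classical heavy chain measured here, stood at 17.35, 16.73 and 17.10 CPM in controls and at 15.74, 17.88 and 15.84 CPM in IL17D cells. The groups overlapped, since the second IL17D library was the highest of all 6 and the other two were the lowest, and the log2 fold change was -0.05 ± 0.10 (SE, 95% interval -0.25 to 0.15, adjusted p = 0.9132, edgeR). It was -0.01 without IL17D replicate 1, -0.02 without IL17D replicate 3 and -0.11 without IL17D replicate 2.

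The non-classical heavy chains overlapped between the groups. HLA-E (ENSG00000204592, chromosome 6, 30489467 to 30494205, plus strand), whose product presents leader peptides of other class I chains to NKG2A receptors, stood at 68.12, 68.79 and 67.77 CPM in controls and at 69.48, 67.20 and 67.91 CPM in IL17D cells. All 6 libraries lay within 67.20 to 69.48 CPM, and the 95% interval of the log2 fold change ran from -0.11 to 0.11 (adjusted p = 0.9987, edgeR). HLA-F (ENSG00000204642, chromosome 6, 29722775 to 29738528, plus strand), a heavy chain known for low surface expression, stood at 3.200, 2.143 and 2.549 CPM in controls and at 2.796, 2.554 and 3.154 CPM in IL17D cells. It rested on 31 to 52 counts per library, the groups overlapped, and the interval of its log2 fold change was wide, from -0.40 to 0.59 (adjusted p = 0.9339, edgeR).

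Reads of the heavy chain genes are hard to assign, since the genes resemble each other and are among the most variable in the human genome. Of the 31-base stretches of HLA-C, 12.33% occurred in another member, and 9.68% of those of HLA-B, 3.7% of those of HLA-E and 1.63% of those of HLA-F did. Counted over any other gene, the shares were 15.93% for HLA-C, 12.23% for HLA-B, 10.33% for HLA-E and 3.62% for HLA-F. The HLA-B gene model covers most of HLA-C and shares 35 exon bases with it on the same strand, and HLA-F shares 535 exon bases with the opposite HLA-F-AS1. The sources used here do not say how such reads were counted or whether the counting used the strand. Summed within each library, the 4 heavy chain genes had 2644, 2318 and 2587 counts in controls and 2818, 2670 and 2423 in IL17D cells. The log2 fold change of the sum was 0.06 ± 0.04 (SE, 95% interval -0.02 to 0.14, adjusted p = 0.6496, edgeR).

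B2M (ENSG00000166710, chromosome 15, 44711487 to 44718877, plus strand), the light chain shared by all class I molecules, had the smallest p of the members. It stood at 160.9, 163.4 and 168.4 CPM in controls and at 150.2, 148.5 and 154.4 CPM in IL17D cells. All IL17D libraries were below all controls. The log2 fold change was -0.12 ± 0.04 (SE, 95% interval -0.20 to -0.04), and it did not pass the correction over all genes (adjusted p = 0.1477, edgeR). The ratio of the 4 heavy chain genes to B2M within a library, which no scaling of libraries can move, was 1.011, 0.9805 and 0.955 in controls and 1.14, 1.094 and 1.1 in IL17D cells. The ratio was higher in all IL17D libraries than in any control, by 0.18 on the log2 scale (exact permutation test, two-sided, p = 0.1, the smallest p that 3 against 3 libraries can give). Without each library in turn the difference was 0.16 to 0.20. Of the single genes over B2M, HLA-C differed by 0.25 and HLA-E by 0.12 on the log2 scale without overlap (exact permutation p = 0.1 each), and HLA-B by 0.07 (exact permutation p = 0.5) and HLA-F by 0.24 (exact permutation p = 0.3) with overlap. These ratios share their denominator, so each includes the log2 fold change of B2M (-0.12). On their own, HLA-E had a log2 fold change of -0.00036 and the 4 heavy chain genes summed had 0.06 (edgeR).

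**Figure D2:**
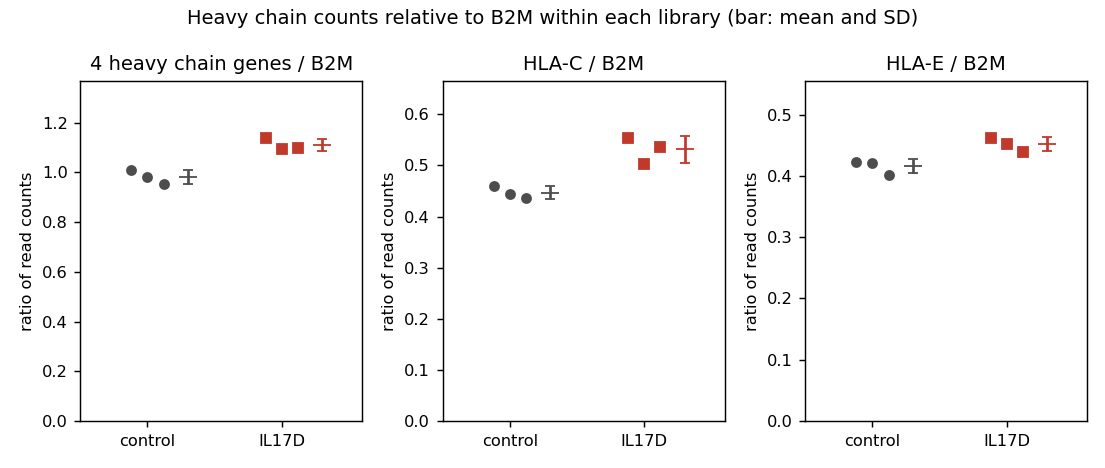
Ratio of read counts to B2M in each library (linear axis from 0) for the 4 heavy chain genes summed, HLA-C and HLA-E, with the mean and SD beside the points. In each panel the 3 IL17D libraries lie above the 3 controls. B2M, the shared denominator, was itself lower in the 3 IL17D libraries, and HLA-E in CPM overlapped between the groups.

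The peptide transporter genes TAP1 and TAP2 lie near each other in the class II region of chromosome 6. TAP2 (ENSG00000204267, chromosome 6, 32821833 to 32838780, minus strand), one chain of the transporter, stood at 16.98, 15.49 and 14.30 CPM in controls and at 17.69, 18.98 and 18.08 CPM in IL17D cells. All IL17D libraries were above all controls, with a log2 fold change of 0.23 ± 0.10 (SE, 95% interval 0.02 to 0.43) and an adjusted p of 0.3576 (edgeR). The gene model shares 2064 of its exon bases, 32.3%, with AL669918.1 on the same strand, which had 0 counts in every library. TAP1 (ENSG00000168394, chromosome 6, 32845209 to 32853978, minus strand), the partner chain, stood at 47.14, 53.44 and 46.82 CPM in controls and at 54.22, 49.87 and 51.02 CPM in IL17D cells. The groups overlapped, since the second control was above 2 of the IL17D libraries, and the log2 fold change was 0.08 ± 0.06 (SE, adjusted p = 0.7204, edgeR). The ratio of TAP1 to TAP2 counts was 3.167 ± 0.3503 in controls and 2.838 ± 0.219 in IL17D cells (SD, n = 3 each), and it overlapped.

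TAPBP (ENSG00000231925, chromosome 6, 33299694 to 33314387, minus strand) encodes tapasin, which bridges the transporter and the empty heavy chain. It stood at 122.0, 128.0 and 117.4 CPM in controls and at 113.7, 108.6 and 119.6 CPM in IL17D cells. The third IL17D library lay above the third control, so that the groups overlapped. Its fitted log2 fold change was -0.10 ± 0.05 (SE, 95% interval -0.20 to -0.01), with an adjusted p of 0.3683 (edgeR).

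NLRC5 (ENSG00000140853, chromosome 16, 56989485 to 57083531, plus strand), the class I transactivator, stood at 8.615, 7.328 and 6.653 CPM in controls. In the IL17D libraries it stood at 5.410, 7.481 and 5.116 CPM, on 73 to 140 counts per library over both groups. The second IL17D library lay within the controls and the other 2 lay below them. The log2 fold change of -0.32 ± 0.16 (SE, 95% interval -0.65 to 0.01) was the largest in size among the members, with an adjusted p of 0.449 (edgeR). It rested on single libraries: it was -0.52 without IL17D replicate 2 and -0.21 without control replicate 1, with adjusted p values of 0.2126 to 0.7754 over the alternatives.

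**Figure D3:**
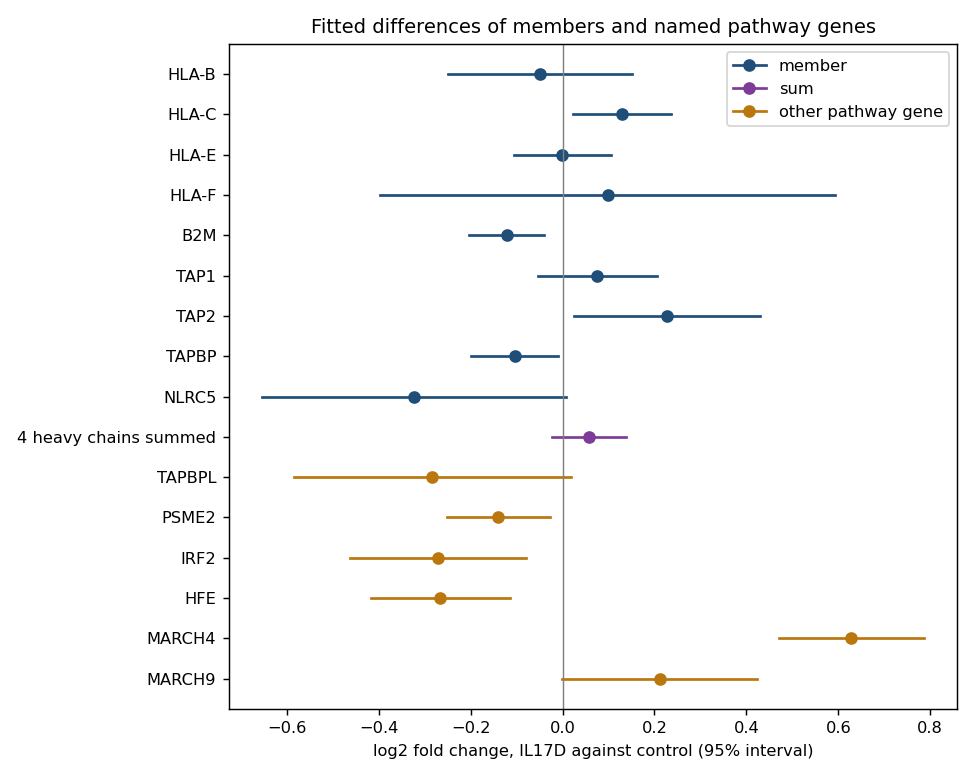
Fitted log2 fold change of IL17D against control cells with its 95% interval for the 9 members, for the 4 heavy chain genes summed and for 6 named genes of the pathway. The interval lies above 0 for HLA-C and TAP2, below 0 for B2M and TAPBP and on both sides of 0 for the other 5 members, and MARCH4 is the only gene shown whose adjusted p is under 0.05.

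Levels were compared between the members only per length, as CPM per kilobase of exons. In control cells HLA-C was highest at 29.26 ± 0.2885 CPM per kilobase, followed by B2M at 27.02 ± 0.6282, TAPBP at 24.22 ± 1.051 and HLA-E at 22.93 ± 0.1742 (SD, n = 3). TAP1 followed at 10.23 ± 0.7769, HLA-B at 5.592 ± 0.1022 and TAP2 at 2.44 ± 0.2101, and NLRC5 and HLA-F were lowest at 0.6081 ± 0.08048 and 0.6059 ± 0.1228 CPM per kilobase. Over the 6 libraries the ranges of B2M and TAPBP, of TAPBP and HLA-E, and of NLRC5 and HLA-F overlapped. The order depended on the length used. The second length was the median over the transcripts annotated as principal for a gene. With it, B2M was highest at 151.9 ± 3.533 CPM per kilobase (1081 bases in place of 6079), followed by TAPBP at 64.87 ± 2.815 and HLA-C at 47.75 ± 0.4709. Under both lengths, HLA-B stood below HLA-C, HLA-E and TAP1. The limits on assigning heavy chain reads apply to this order too, and 18.91% of the exon bases of HLA-B lie in other genes. Most of these, 542 bases or 17.76%, lie in AL671883.2, a pseudogene on the opposite strand with a mean of 0 counts, and 35 lie in HLA-C. Whether reads of HLA-B were lost was not tested.

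**Figure D4:**
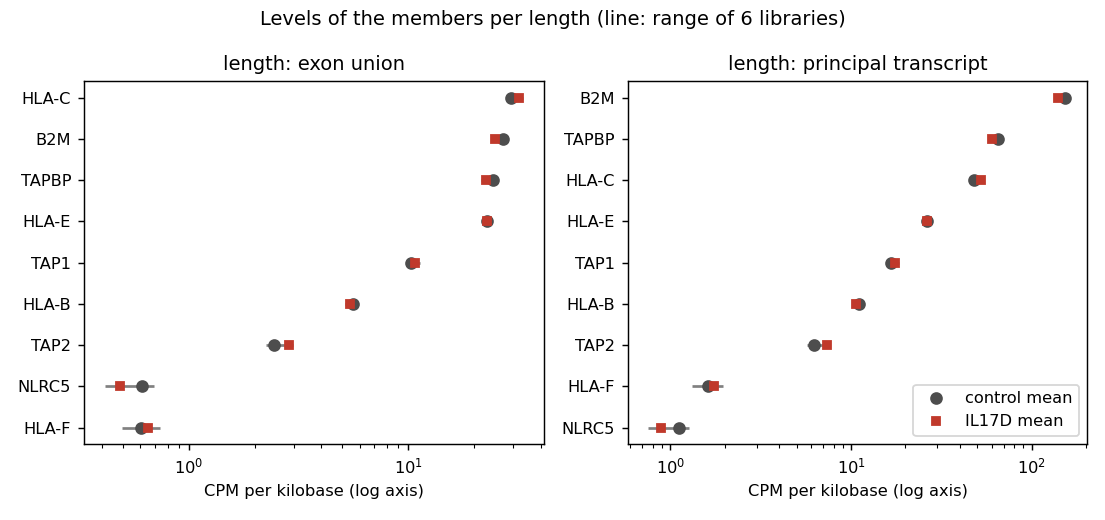
Level of each member in CPM per kilobase (log axis), with the length taken as the union of exons or as the median of the principal transcripts. Points are group means and lines span the 6 libraries, and B2M moves from second place to first with the shorter length.

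The other genes of the pathway were read from lists given by function. Of 7 peptide loading partners in the endoplasmic reticulum (CALR, CANX, PDIA3, TAPBPL, ERAP1, ERAP2 and UGGT1), 0 passed the test in either direction (edgeR) and 0 had an unadjusted p under 0.05. All 7 log2 fold changes were negative with a median of -0.05, as were 7896 of all 15754 tested genes. In 3 of the 7 the groups did not overlap, all lower in IL17D cells, beside 8.31% of all tested genes. TAPBPL, the tapasin-related peptide editor, had the smallest p of the 7 partners, with 9.069 ± 1.555 CPM in controls and 7.409 ± 1.052 CPM in IL17D cells (log2 fold change -0.28 ± 0.15 SE, adjusted p = 0.4764, edgeR). The value was -0.18 without IL17D replicate 3 and -0.42 without control replicate 3. Of 8 immunoproteasome genes and their constitutive counterparts, 0 passed the test, 2 were lower at an unadjusted p under 0.05 (5.99% of all tested genes were), and the median log2 fold change was -0.09. In 4 of the 8 the groups did not overlap, all lower in IL17D cells, beside 8.31% of all tested genes. PSME2, a subunit of the interferon-inducible proteasome activator, stood at 74.36 ± 2.884 CPM in controls and 67.56 ± 3.876 CPM in IL17D cells (log2 fold change -0.14, and -0.09 without IL17D replicate 2, adjusted p = 0.2766 with all libraries, edgeR). The ratio of PSMB8 to PSMB5, an interferon-inducible catalytic subunit over the one it replaces, was 0.05263 ± 0.001084 in controls and 0.04598 ± 0.003191 in IL17D cells, whereas that of PSMB9 to PSMB6 was 0.06887 ± 0.006366 and 0.07803 ± 0.001673. These ratios did not overlap between the groups, in opposite directions. The highest control of PSMB9 to PSMB6 (0.07616) lay just below the lowest IL17D library (0.07697). As single genes, PSMB8 had a log2 fold change of -0.18 and PSMB5 of 0.02, and PSMB9 had 0.08 and PSMB6 -0.10 (edgeR). PSMB8 and PSMB6 were lower without overlap, and PSMB5 and PSMB9 overlapped. The ratio of PSMB10 to PSMB7 overlapped, with 0.01847 ± 0.0009752 in controls and 0.01716 ± 0.003954 in IL17D cells. The ratios were not tested.

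Of 24 genes of class I transcription and interferon signaling, 0 passed the test, 2 were lower at an unadjusted p under 0.05 (beside 5.99% of all tested genes), and the median log2 fold change was 0.03. In 4 of the 24 the groups did not overlap, all lower in IL17D cells, beside 8.31% of all tested genes. IRF2, an interferon regulatory factor that acts on class I promoters, had the smallest p, with 22.71 ± 1.112 CPM in controls and 18.88 ± 2.118 CPM in IL17D cells (log2 fold change -0.27 ± 0.09 SE, adjusted p = 0.1869, edgeR), and its log2 fold change was -0.18 without IL17D replicate 1. Of 8 interferon genes, 6 had no count in any library, and IFNE, the only one tested, had an adjusted p of 0.7484 (edgeR). Of 14 class I-like molecules and ligands of the NKG2D receptor, 8 could be tested and 0 passed. Of the 8, 1 was lower at an unadjusted p under 0.05 (edgeR), beside 5.99% of all tested genes. In 2 of the 8, HFE and ULBP1, the groups did not overlap and were lower in IL17D cells, beside 8.31% of all tested genes. HFE, a class I-like regulator of iron uptake that pairs with B2M, was the nearest to the threshold, with 33.59 ± 1.229 CPM in controls and 27.95 ± 0.4877 CPM in IL17D cells (log2 fold change -0.27 ± 0.07 SE, adjusted p = 0.06049, edgeR, 0.0496 to 0.2389 over the alternatives). Of 12 MHC class II genes, 7 had no count in any library and 0 of the 4 tested passed. HLA-DPA1, a class II alpha chain, had the smallest p of these, on 11, 3 and 5 counts in controls and 15, 9 and 16 in IL17D cells (adjusted p = 0.4166, edgeR).

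MARCH4 was the only listed pathway gene to pass the test, where 0.673% of all tested genes were called higher and 0.908% lower. Of 7 genes of class I surface turnover, it rose and the other 6 did not pass (edgeR), with a median log2 fold change of 0.01. MARCH4 (ENSG00000144583, chromosome 2, 216257865 to 216372027, minus strand, now named MARCHF4) encodes a membrane-bound ubiquitin ligase that can take class I molecules off the cell surface when overexpressed. It had 397, 315 and 391 counts in controls and 576, 590 and 548 in IL17D cells, or 23.51 ± 1.499 and 36.43 ± 1.760 CPM, with no overlap. The log2 fold change was 0.63 ± 0.08 (SE, 95% interval 0.47 to 0.79) with an adjusted p of 1.621e-06 (edgeR), and it passed in all 14 alternatives tried for it, with an adjusted p of 1.805e-11 to 0.0001366. MARCH9, its relative, was chosen for mention after its values were seen and stood at 14.76 ± 1.539 CPM in controls and 17.10 ± 1.093 CPM in IL17D cells (log2 fold change 0.21 ± 0.10 SE, adjusted p = 0.4324, edgeR). Surface class I protein was not measured in these files.

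**Figure D5:**
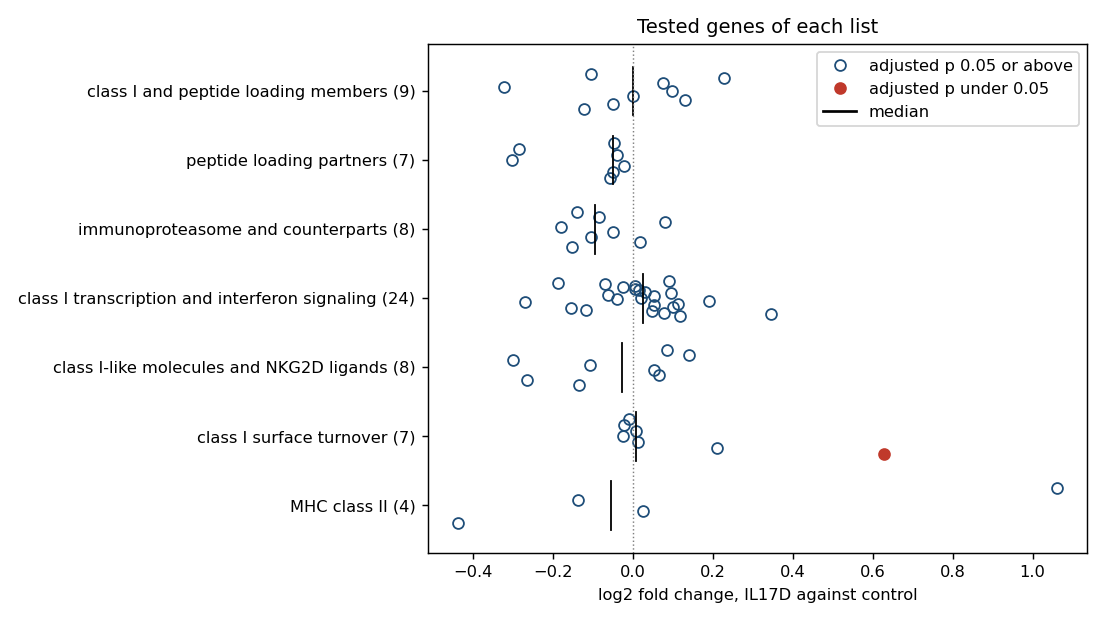
Log2 fold change of IL17D against control cells for every tested gene of the members and 6 other lists, with the median as a bar and the number of tested genes in parentheses. Filled points passed the test at an adjusted p under 0.05, which MARCH4 alone did.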

How the data were processed

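RNA of 6 A549 libraries, 3 per group, was sequenced. The labels and the study's methods name different sequencers. The deposited table gives whole-number read counts per gene, and per the submitters' processing notes the authors aligned with Bowtie2 to hg38. The counting tool, its strand setting and all versions are not given in the sources used here. All 58735 gene positions matched GENCODE 29. The chi-square per degree of freedom between libraries of a group was 2.19 to 3.38, so no library was a copy of another.

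Groups came from the labels. Counts were tested with edgeR 4.0.16 in R 4.3.3 (TMM normalization, filterByExpr, quasi-likelihood test, two-sided, Benjamini-Hochberg over 15754 genes, threshold 0.05), a procedure tested on simulated data. The study's methods name no test for these counts. Intervals are 95% intervals of the fitted log2 fold change. Alternatives were DESeq2 1.42.0, limma-voom 3.58.1, other scalings and filters, a replicate block and leaving out each library. Genes were named by this rule: the 9 members, IL17D, of each pathway list the genes that passed or else that with the smallest p, the highest gene of each marker list, and the 5 genes most like the members. EPCAM, KRT19, CLDN4, CDH1, MARCH9, the proteasome subunit genes in ratios and the markers with no count fall outside it and were chosen after their values were seen. The members, lists and tests were chosen with earlier results of these data known. Motifs were counted in RefSeq promoters (GRCh38.p14).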

Additional observations from a re-analysis of the deposited data

How the results depend on the processing

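No alternative gave any of the 9 members an adjusted p under 0.05, the lowest being 0.1167 for B2M, although DESeq2 left HLA-F and NLRC5 without one. HLA-B, HLA-C, B2M, TAP1, TAP2, TAPBP and NLRC5 kept their direction in every alternative fitted to the gene itself. The log2 fold change was -0.11 to -0.01 for HLA-B, 0.10 to 0.18 for HLA-C and -0.14 to -0.10 for B2M. It was 0.04 to 0.14 for TAP1, 0.17 to 0.30 for TAP2, -0.14 to -0.07 for TAPBP and -0.52 to -0.21 for NLRC5. The sign was not fixed for HLA-E and HLA-F. HLA-E was 0.0012 with DESeq2 size factors, 0.0011 with DESeq2 and 0.00022 with at least 10 counts in every library. Without each library HLA-E was -0.014 to 0.011. HLA-F was -0.024 to 0.27 without each library, with its sign changed without control replicate 2. The heavy chain genes summed gave 0.057, which is not the value of any single gene. Members at an unadjusted p under 0.05 numbered 1 higher and 1 lower with DESeq2, and 1 to 2 higher and 1 to 3 lower without each library. Over all genes, 69 to 129 were called higher and 76 to 138 lower without each library, beside 106 and 143 with all libraries. The count moved by over 1.5 times without IL17D replicate 3 (69 higher and 76 lower), without IL17D replicate 1 (79 lower) and without control replicate 2 (95 lower). Libraries share only a replicate number: deviations of same-numbered libraries correlated at -0.02 to 0.01, and with the replicate block 115 genes were called higher and 157 lower, with 0 members, and 3 members were lower at an unadjusted p under 0.05. Scaling moved the median of all genes by at most -0.0065. Low depth limits HLA-F and NLRC5, and the cause of these changes was not tested. Alternatives for the genes outside the members were added after seeing the data, as were the second gene length and the single heavy chains over B2M.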

Other observations

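Over the 6 libraries the mean profile of the members varied little, from -0.042 to 0.066 in centred log2 CPM. Members that moved in opposite directions cancel in this mean. The genes most like it, among 9734 tested genes with a mean of at least 10 CPM, were TMEM222 (Pearson r = 0.9848), PKN3 (r = 0.9738), DNAL4 (r = 0.9721), ANP32A (r = 0.9719) and GNAZ (r = 0.9708). These r values are a description over 6 libraries, with no p. The 5 genes were picked as the highest of 9734 correlations, so high values follow from the choice and do not show a shared regulation. None of the 5 passed the test between the groups, with an adjusted p of 0.9433 to 0.9962 (edgeR).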
